A study of Mus musculus with 18 samples.

Results

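The genes described here are 40 cell cycle and replication genes of the mouse, chosen by symbol as a list of cyclins, cyclin-dependent kinases, mitotic genes, DNA replication genes and cell cycle transcription factors. Their symbols matched 41 of the 58570 gene loci in the deposited tables, because Tk1 was split over 2 loci. RNA came from whole spinal cords of the SMNΔ7 line, a mouse model of spinal muscular atrophy (SMA), at postnatal days 2, 6 and 10 (P2, P6 and P10). At each age, cords of homozygous SMA pups were compared with cords of heterozygous controls of the same line, with 3 libraries labelled per group and 18 in all. As background, affected pups of this line lack the mouse gene Smn1 in every cell and carry human SMN transgenes. The labels name the strain and these genotypes only, and do not state the transgene copies that the controls carry, the sex of the pups or whether a library came from 1 animal. The tables hold 1 combined FPKM (a level per transcript length, in fragments per kilobase and adjusted for depth) per group and locus with a lower and an upper bound, so a value per library, a standard deviation over animals and a replicate number could not be given for any value below.

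A dividing cell passes through a growth phase, a phase of DNA synthesis, a second gap and mitosis, and each step is driven by a cyclin bound to its kinase. Genes for DNA synthesis are classically switched on by E2F factors before replication starts. Genes for mitosis are held back by the DREAM complex in resting cells and switched on later by MuvB complexes with FoxM1. DREAM and MuvB act through a promoter element called the CHR (cell cycle genes homology region). After birth the dividing cells of the rodent spinal cord are mainly glial, above all oligodendrocyte precursors and astrocytes, together with vascular cells and microglia, while neurons no longer divide.

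Promoter windows from 250 bases before to 50 bases after the transcription start, taken from RefSeq on GRCm38.p6, were found for 31 of the 40 genes. Ccna2, Ccne2, Ccnd1, Ccnd2, Aurkb, Tpx2, Mcm4, Gins2 and Foxm1 had no entry. Both strands were searched for 4 forms of the E2F motif (TTTCCCGC, TTTCGCGC, TTTGCCGC and TTTGGCGC), 2 forms of the CHR (TTTGAA and TTCGAA) and the CCAAT box, and overlapping matches of 1 motif were joined. The 6 stretches shown each end at the base before the RefSeq start and are written 5′ to 3′ on the gene's strand. They were picked to show 3 mitotic genes with a CHR, 2 replication genes with an E2F form and the kinase gene that bears both motifs. In Cdk1 the last 26 bases, which hold the CHR nearest the start, lie in an untranslated region annotated by GENCODE. Capitals mark matches to the searched motifs.
Mki67, chr7:135716380-135716529, minus strand: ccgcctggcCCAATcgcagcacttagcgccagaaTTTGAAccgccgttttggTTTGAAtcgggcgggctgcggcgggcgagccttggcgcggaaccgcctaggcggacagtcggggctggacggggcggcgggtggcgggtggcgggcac
Top2a, chr11:99024190-99024339, minus strand: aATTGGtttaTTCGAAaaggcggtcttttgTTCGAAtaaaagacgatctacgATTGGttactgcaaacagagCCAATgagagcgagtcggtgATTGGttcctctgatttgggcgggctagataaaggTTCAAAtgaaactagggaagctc
Kif11, chr19:37376282-37376381, plus strand: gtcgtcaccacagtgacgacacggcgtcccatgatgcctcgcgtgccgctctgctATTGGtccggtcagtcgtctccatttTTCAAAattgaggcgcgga
Mcm6, chr1:128359706-128359855, minus strand: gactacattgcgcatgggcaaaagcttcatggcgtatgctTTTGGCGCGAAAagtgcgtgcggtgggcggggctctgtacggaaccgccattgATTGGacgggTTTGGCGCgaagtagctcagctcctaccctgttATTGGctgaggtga
Mcm5, chr8:75109349-75109508, plus strand: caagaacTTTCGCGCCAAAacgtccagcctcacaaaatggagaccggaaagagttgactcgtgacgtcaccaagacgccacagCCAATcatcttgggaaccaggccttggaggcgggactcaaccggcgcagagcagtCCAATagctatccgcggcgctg
Cdk1, chr10:69352913-69353062, minus strand: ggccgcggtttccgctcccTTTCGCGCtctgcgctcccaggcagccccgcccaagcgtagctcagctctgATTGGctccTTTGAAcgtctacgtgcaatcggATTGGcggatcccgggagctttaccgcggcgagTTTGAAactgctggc

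Mitotic and replication genes held different motifs in these windows. An E2F form was found in 6 of 12 replication genes (Mcm3, Mcm5, Mcm6, Mcm7, Cdc6 and Cdt1), in 0 of 12 mitotic genes, and in 2.26% of all 32851 windows. A CHR form was found in 9 of 12 mitotic genes, in 2 of 12 replication genes (Mcm2 and Mcm7), and in 19.2% of all windows. The CCAAT box, which is short and frequent, was found in 10 of 12 mitotic and 8 of 12 replication genes, against 37.4% of all windows. Of the kinase genes, Cdk1 and Cdk2 had an E2F form and Cdk1 a CHR, and of 3 cyclin genes with a window Ccnb2 had a CHR and neither Ccnb1 nor Ccne1 had either motif. A match in a window is a description of its letters and not a bound site.

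**Figure D1:**
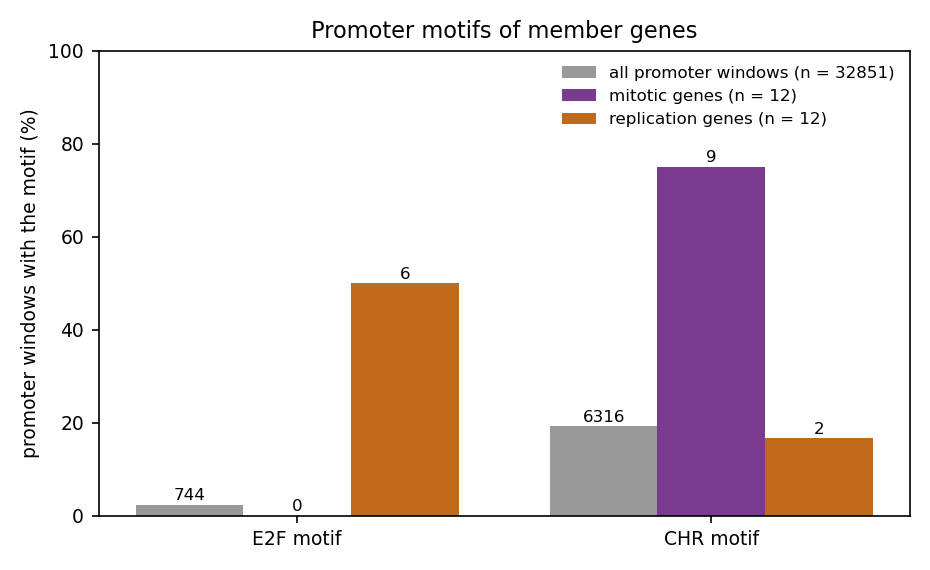
Share of promoter windows, in percent, that held an E2F or a CHR motif among all 32851 windows (grey), 12 mitotic genes (purple) and 12 replication genes (orange); the number above a bar is the count of windows. E2F was found in 6 replication and 0 mitotic windows, and CHR in 9 mitotic and 2 replication windows.

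Most of the 41 loci were expressed at a low level. Of these, 39 reached FPKM 1 in at least 1 group and 33 in all 6 groups, and Cdc6, a replication licensing factor, and E2f1, a transcription factor of the E2F family, stayed below FPKM 1 throughout. Cdk4, the kinase partner of the D cyclins, was the highest member, at FPKM 29.5, 29.2 and 30.1 in control at P2, P6 and P10 and at 31.2, 28.4 and 27.5 in SMA. Pcna, the sliding clamp of the replication polymerases, followed at 18.1 to 24.5. Kinesins and kinetochore genes such as Kif11, Kif23, Cenpe and Cenpf lay between 0.642 and 2.60. A typical member rested on a median of 68.8 to 87.6 estimated fragments per group, of 6881671 to 7386338 fragments in all, and the median distance from FPKM to its upper bound was 79.3% of the FPKM. For 18 loci this distance passed 100% in some group. Loci named by several symbols cannot be given to 1 gene, which concerned Ccnb2 (with Rnf111), Top2a (with Gm23451), Mcm7 (with Mir25 and Mir93) and Foxm1 (with 4933413G19Rik, Gm44596 and Nrip2). The 2 loci named Tk1 share reads of 1 annotated gene, and Gins2 and Cdt1 had bounds several times their FPKM, so these values are uncertain.

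Smn1 checked the labels first. Its FPKM was 2.70, 4.46 and 3.54 in control at P2, P6 and P10, and 0.0210 at P2 and listed at 0 at P6 in SMA. In the group labelled SMA at P10 it was 2.82, or 79.8% of the control value, so each direction drawn from that group rests on Smn1 near control. Markers of myelinating cells also went against an even course over age in SMA. The summed FPKM of 8 mature oligodendrocyte markers was 248, 1738 and 7449 in control, and 3374, 1962 and 4153 in SMA. The group labelled SMA at P2 thus had a higher sum than that labelled SMA at P6 and than control at P2 and P6. Whether each library of the groups labelled SMA at P2 and SMA at P10 carries its true label cannot be told from combined values. This touches SMA against control at P2 and P10, the steps within SMA that use either group, and the limma fits, which include both. It also touches the tests of how the genotype difference changed from P2 to P6 and to P10. The steps in control and SMA against control at P6 use neither group. Neuronal markers, a check on the tissue, were present in every group, with a summed FPKM of 454 to 543 over 7 genes.

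The first comparison asked how these genes moved in control cords from P2 to P6. None of 39 tested members was called by a two-sided z test on log2 FPKM ratios, at an adjusted p under 0.05 over all 19622 loci, against 0.112% of all loci, and 0 members had an unadjusted p under 0.05, against 0.637%. What follows is therefore a description of values. Of 14 mitotic genes, 13 had a higher value at P6, with a median log2 ratio of 0.39, and 6 of 7 cyclins did, with a median of 0.31, against 49.7% of all loci tested and a median of 0.00. Replication genes did not share this direction, with a lower value at P6 for 9 of 15 loci and a median of -0.08. Without the uncertain or joined loci of Gins2, Cdt1 and Mcm7, 6 of 12 loci had a lower value and 6 a higher one, with a median of 0.03.

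Mki67, the proliferation antigen Ki-67 (ENSMUSG00000031004.8, chromosome 7, 135689784 to 135716361), had FPKM 3.68, 5.05 and 4.62 in control, in the order of age. In SMA it had 2.87, 4.12 and 4.23. Control values were above SMA values at each age, and the bounds of all 6 groups overlapped. The log2 ratio of P6 against P2 in control was 0.46 ± 0.43 (SE from the deposited bounds, here and for each ratio within an age or a genotype). Kif23, a kinesin of the central spindle, had the greatest ratio of the mitotic genes, from FPKM 0.790 to 1.43, a log2 ratio of 0.86 ± 0.67. Cenpe, the kinetochore kinesin, went from 1.30 to 1.98 (0.61 ± 1.22), Aurkb, the kinase of the chromosomal passenger complex, from 1.44 to 2.18 (0.60 ± 1.33), and Tpx2, a spindle assembly factor, from 2.19 to 3.20 (0.54 ± 0.78). In estimated fragments Aurkb was nearly level, at 18.7 and 19.6. Plk1, a kinase of mitotic entry, was the exception, at 1.18 and 1.18. The A and B cyclins that drive mitosis had the same direction as these genes. Ccna2 was 5.98 at P2 and 8.05 at P6 (0.43 ± 0.73), and Ccnb1 was 3.41 and 4.23 (0.31 ± 0.65). The joined locus of Ccnb2 and Rnf111 was flat, between 15.6 and 17.0 over the 6 groups.

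From P6 to P10 in control the mitotic genes had the opposite direction. None of 39 members was called, against 0.0751% of all loci, and 0 had an unadjusted p under 0.05, against 1.12%. The value was lower at P10 for 13 of 14 mitotic genes, with a median log2 ratio of -0.38, against 47.2% of all loci and a median of 0.03. Aurkb went from 2.18 to 1.37, a log2 ratio of -0.67 ± 1.29, but was nearly level in estimated fragments, at 19.6 and 18.7. Cenpf, a kinetochore protein, went from 2.60 to 1.67 (-0.64 ± 1.08), and Prc1, the bundler of the central spindle, from 5.53 to 3.68 (-0.59 ± 0.83). Mki67 moved least of those named, by -0.13 ± 0.59. Bub1, a spindle checkpoint kinase, was the 1 mitotic gene with a higher value at P10, at 1.81 and 2.01. Its estimated fragments went the other way, from 40.7 to 31.4. P6 was thus the highest of the 3 control ages for 12 of 14 mitotic genes and 4 of 7 cyclins, but for 3 of 15 replication loci, against 23.1% of all loci. Since the P6 value enters both steps, an error in that 1 group would move both.

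Most replication loci had lower values in control at P10 than at the earlier ages. Of 15 loci, 11 had a lower value at P10 than at P2 in control, with a median log2 ratio of -0.17, against 48.2% of all loci and a median of 0.02, and 7 were lower at each of the 2 steps, against 24.6% of all loci. Without Gins2, Cdt1 and Mcm7, 9 of 12 loci had a lower value at P10 than at P2, with a median of -0.15. None of 39 members was called in P10 against P2 in control, against 0.631% of all loci, and 0 had an unadjusted p under 0.05, against 3.51%. The subunits of the MCM helicase, which unwinds DNA at the fork, differed among themselves. Mcm6 had FPKM 6.05, 5.40 and 3.42 in control and 4.51, 4.84 and 3.96 in SMA. The control value at P10 was below both earlier ones (log2 ratio to P2 of -0.82 ± 0.72), and the bounds of the groups overlapped. Mcm2 went from 4.07 to 2.45 and 2.03 (-1.0 ± 1.84) and Mcm5 from 4.24 to 4.01 and 2.78 (-0.61 ± 0.63). The Mcm2 value at P2 had bounds of 0 and 12.3. Its estimated fragments fell less than its FPKM, at 83.2, 77.2 and 70.1. Mcm3 ran the other way, from 1.70 to 2.22 and 2.26 (0.41 ± 0.92), a difference that was 0.00 in the estimated counts. Pcna went from 24.5 to 22.8 and 18.1 (-0.44 ± 0.45). Of the genes of nucleotide supply, Tyms (thymidylate synthase) had 7.98, 8.91 and 7.67 and Rrm1 (the large subunit of ribonucleotide reductase) 6.94, 8.06 and 6.74, which is the course of the mitotic genes, while Rrm2, the small subunit, had 3.47, 2.93 and 2.92.

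The D cyclins, which link growth signals to Cdk4, followed neither course. Ccnd1 had FPKM 7.16, 9.30 and 10.5 in control and 9.66, 9.45 and 8.96 in SMA, and the control values were in the order of age (P10 against P2, 0.55 ± 0.60). Ccnd2 had 6.18, 7.85 and 8.07 in control and 6.58, 7.06 and 7.22 in SMA (0.39 ± 0.57 in control). The E cyclins of the start of replication were nearly level, at 2.42 to 2.95 for Ccne1 and 3.52 to 4.20 for Ccne2 over the 6 groups. Cdk1, the mitotic kinase, had 4.56, 4.79 and 3.33 in control (P10 against P2, -0.45 ± 1.00) and 4.60, 5.15 and 3.93 in SMA. The joined locus of Foxm1 had 4.59 to 5.90.

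Of the members not yet described, some kept to these courses, some did not, and some were near the limit of detection. Birc5, the survivin subunit of the passenger complex, had FPKM 2.14, 2.36 and 2.31 in control and 1.41, 2.01 and 2.28 in SMA. Kif11, the kinesin that separates the spindle poles, had 1.87, 2.25 and 1.86 in control and 1.39, 1.95 and 2.11 in SMA. In both genes the SMA value at P2 was the lowest of the 6 groups. Mcm4 had 4.24, 4.68 and 3.85 in control and 3.60, 4.34 and 4.01 in SMA, and the joined locus of Mcm7 had 8.49, 7.17 and 6.58 in control and 7.17, 7.07 and 6.22 in SMA. Tk1, which encodes thymidine kinase, had 0.972, 1.24 and 1.51 in control at its first locus and 6.55, 8.15 and 9.08 at the other, and so ran against most replication loci. Cdt1, which loads the helicase, had 2.17, 1.86 and 1.57 in control, and Gins2, a subunit of the active helicase, had 4.57 to 5.34 over the 6 groups, both with wide bounds. Cdc6 ranged from 0.450 to 0.742 and E2f1 from 0.592 to 0.847.

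**Figure D2:**
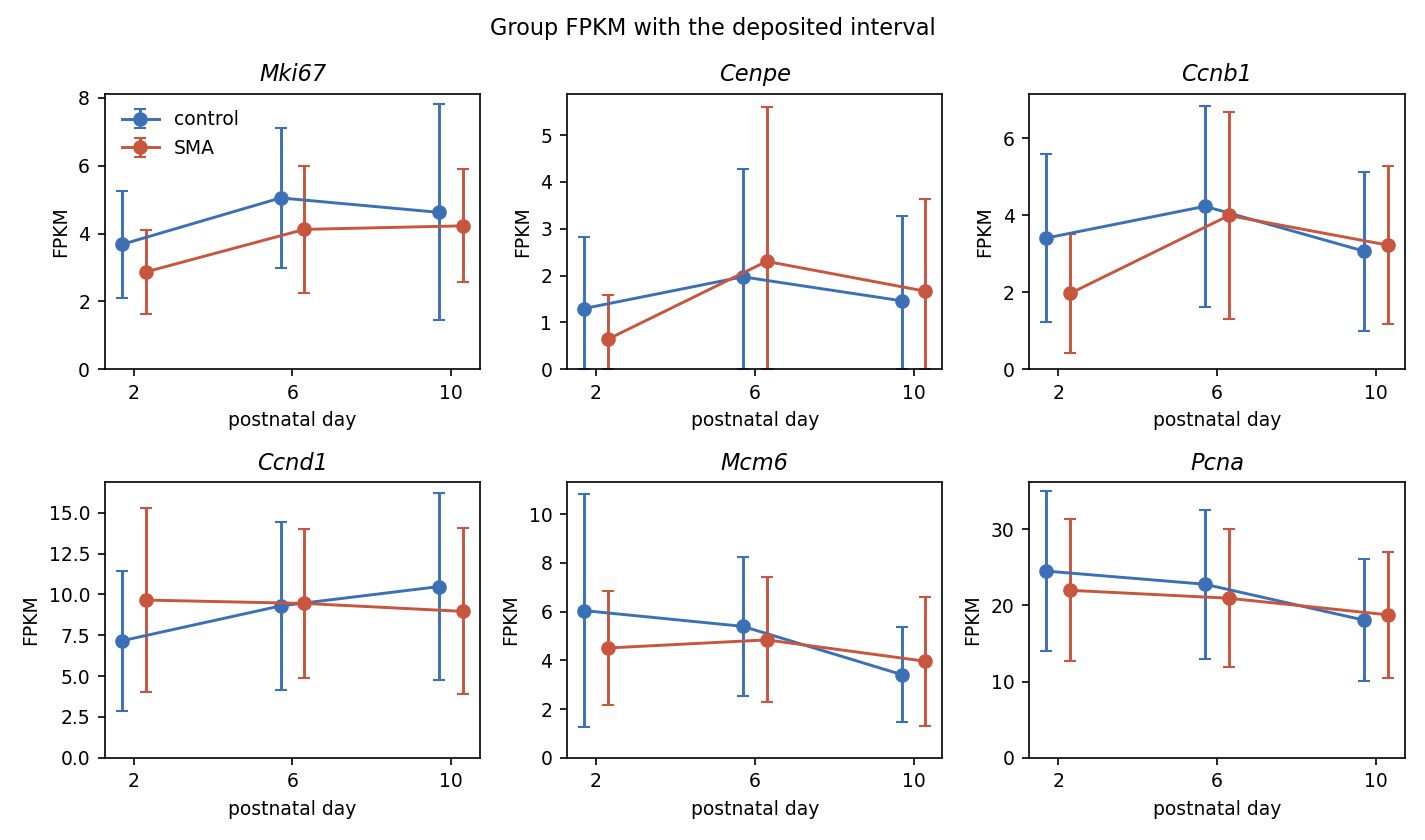
FPKM (vertical axes, each starting at 0) against postnatal day for 6 members in control (blue) and SMA (red); points are the authors' group values and bars their lower and upper bounds. Mki67, Cenpe and Ccnb1 were highest at P6 in control, Ccnd1 at P10, and Mcm6 and Pcna at P2, and the bounds of the groups overlapped for each gene.

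In SMA cords, with the doubt on the groups labelled P2 and P10, most mitotic genes also had a higher value at P6 than at P2. No member was called at either step or from P2 to P10 in SMA, against 0.0312%, 0.0398% and 0.0602% of all loci, and 0 had an unadjusted p under 0.05, against 0.234%, 0.324% and 0.331%. From P2 to P6, 12 of 14 mitotic genes had a higher value in SMA, with a median log2 ratio of 0.51, against 56.4% of all loci and a median of 0.04. Ccnb1 went from 1.97 to 3.99 (1.02 ± 0.76) and Cenpe from 0.642 to 2.31 (1.84 ± 1.52). From P6 to the group labelled SMA at P10, 10 of 14 mitotic genes had a higher value (6 of 14 in the estimated counts), with a median of 0.11, against 52.2% of all loci and a median of 0.02, where 1 of 14 did in control. P10 was the highest age in SMA for 10 of 14 mitotic genes, against 41.9% of all loci. Replication loci had a lower value at P10 than at P2 for 11 of 15, with a median of -0.20, against 43.3% of all loci and a median of 0.05. Pcna was 22.0, 20.9 and 18.8 in SMA (P10 against P2, -0.23 ± 0.45) and Mcm2 2.75, 2.52 and 2.01 (-0.45 ± 1.13).

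Fitting both genotypes together with limma on log2(FPKM + 1), which uses each genotype as a replicate of the age difference, gave smaller errors and no call among 39 members. The SMA side of these differences rests on the group labelled SMA at P2 and, for the second, on that labelled SMA at P10. For P6 against P2, 6 of 39 members had an unadjusted p under 0.05, against 4.24% of all loci, and all 6 were mitotic genes or A and B cyclins with a higher value at P6. They were Ccna2 (log2 difference 0.44 ± 0.11, limma adjusted p = 0.944), Cenpe (0.69), Mki67 (0.39), Aurkb (0.45), Tpx2 (0.48) and Ccnb1 (0.50), each with a higher value at P6 in 2 of 2 genotypes. The estimated fragments of Aurkb at P2 and P6 were 18.7 and 19.6 in control and 16.0 and 23.2 in SMA. Calls at an adjusted p under 0.05 made up 0.00911% of all loci there. For P10 against P2, 4 of 39 members had an unadjusted p under 0.05, against 15.4% of all loci, namely Mcm2 (-0.53 ± 0.17), Pcna (-0.32 ± 0.11), Mcm6 (-0.41 ± 0.16) and Mki67 (0.35 ± 0.12), and the smallest adjusted p by limma was 0.292, where 0.0137% of all loci were called. The estimated fragments of Mcm2 at P2 and P10 were 83.2 and 70.1 in control and 83.4 and 66.0 in SMA.

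**Figure D3:**
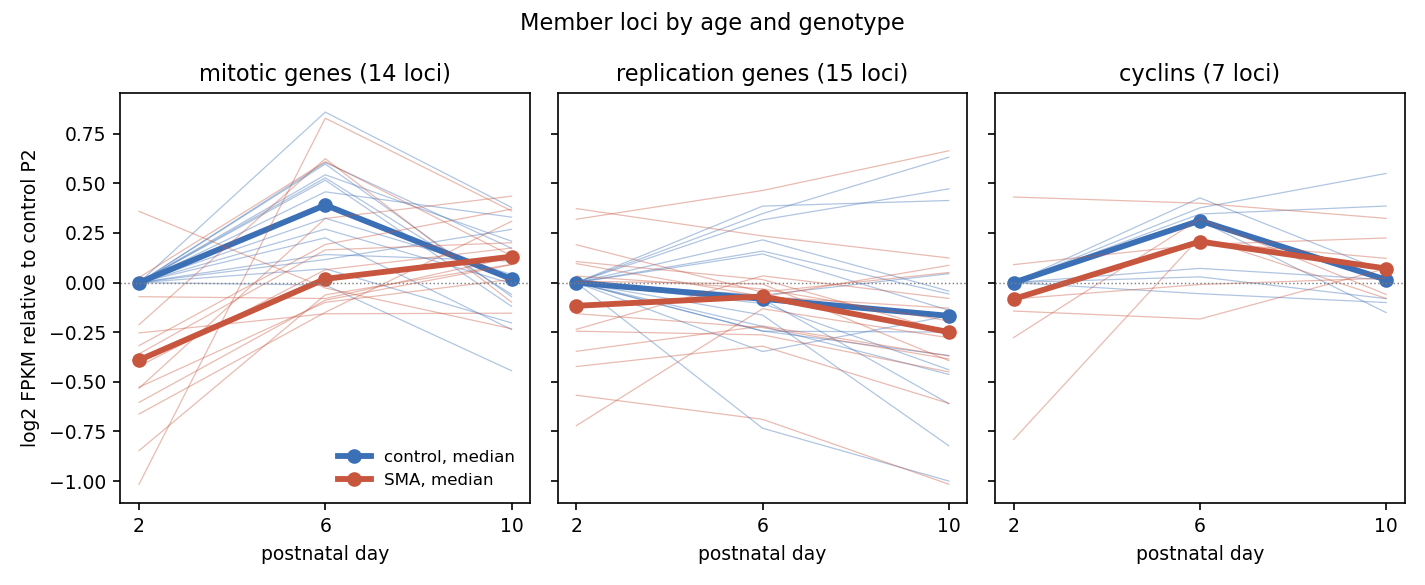
Log2 FPKM relative to control P2 (vertical axis) against postnatal day for 14 mitotic, 15 replication and 7 cyclin loci; thin lines are loci, thick lines with points are medians, in blue for control and red for SMA. In control the mitotic median was 0.39 at P6 and 0.02 at P10 and the replication median -0.08 and -0.17; the mitotic median of SMA at P2 was -0.39.

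The second comparison asked how SMA cords differed from controls of the same age. In the group labelled SMA at P2, whose oligodendrocyte sum stood above that of SMA at P6, none of 38 tested members was called, against 0.126% of all loci, and 0 had an unadjusted p under 0.05, against 0.743%. The value was lower in SMA for 12 of 14 mitotic genes, with a median log2 ratio of -0.39, for 5 of 7 cyclins (median -0.08) and for 8 of 15 replication loci (median -0.12), against 51% of all loci and a median of -0.01. A value more than 1.5-fold lower was seen for 6 of 41 member loci, against 5.86% of all loci, and a value 1.5-fold higher for 0, against 7.36%.

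Cenpe had the greatest ratio at P2, with FPKM 1.30 in control and 0.642 in SMA (-1.02 ± 1.39). Nusap1, a spindle protein that binds microtubules near chromatin, had 1.73 and 0.961 (-0.85 ± 1.06). Ccnb1 had 3.41 and 1.97 (-0.79 ± 0.74), the greatest ratio relative to its error, with an unadjusted p of 0.286 by the z test. Top2a, the topoisomerase that separates sister chromatids, had 7.09 and 4.92 at its joined locus (-0.53 ± 0.77), and Mki67 had 3.68 and 2.87 (-0.36 ± 0.44). Aurka, a centrosome kinase, and Kif23 were the 2 mitotic genes with a higher value in SMA, Aurka at 1.13 and 1.45 (0.36 ± 1.08, and -0.07 in the estimated counts). Among replication genes, Mcm6 had 6.05 and 4.51 (-0.42 ± 0.70), Mcm3 had 1.70 and 2.2 (0.37 ± 0.90), and Mcm2 had 4.07 and 2.75 (-0.57 ± 1.71), a difference of 0.00 in the estimated counts. Ccnd1 was the cyclin with the highest ratio, at 7.16 and 9.66 (0.43 ± 0.61).

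At P6 none of 39 members was called, against 0.0458% of all loci, and 0 had an unadjusted p under 0.05, against 0.168%. The value was again lower in SMA for 12 of 14 mitotic genes, with a median log2 ratio of -0.24, and for 10 of 15 replication loci, with a median of -0.11, against 39.9% of all loci and a median of 0.07. Cenpf had 2.60 in control and 1.64 in SMA (-0.67 ± 1.09), Prc1 5.53 and 4.38 (-0.34 ± 0.84) and Mki67 5.05 and 4.12 (-0.29 ± 0.45). Cenpe had 1.98 and 2.31 (0.22 ± 1.36), a ratio of -0.48 in the estimated counts. Both at P2 and at P6 the value was lower in SMA for 10 of 14 mitotic genes, for 6 of 15 replication loci and for 3 of 7 cyclins, against 24.2% of all loci. Those 2 ages share no library.

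In the group labelled SMA at P10, whose Smn1 was near control, values of the mitotic genes lay on both sides of the control. None of 39 members was called, against 0.0397% of all loci, and 0 had an unadjusted p under 0.05, against 0.213%. A lower value was found for 6 of 14 mitotic genes (median log2 ratio 0.18), 7 of 15 replication loci (median 0.00) and 3 of 7 cyclins (median 0.07), against 44.4% of all loci and a median of 0.04. Plk1 had 0.871 in control and 1.29 in SMA (0.57 ± 1.08), Prc1 3.68 and 4.96 (0.43 ± 0.76), and Cenpf 1.67 and 2.25 (0.43 ± 1.17, and -0.05 in the estimated counts). On the lower side, Cdk2, the kinase of the E and A cyclins, had 2.55 and 1.81 (-0.49 ± 0.66) and Bub1 2.01 and 1.5 (-0.42 ± 1.21). Mki67 had 4.62 and 4.23 (-0.13 ± 0.58). Over all 3 ages the value was lower in SMA for 6 of 41 members, among them 3 of 14 mitotic genes, against 6.86% of all loci.

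The change of the genotype difference between ages was tested itself. From P2 to P10 it was positive for 11 of 14 mitotic genes, with a median of 0.62, against 54.3% of all loci and a median of 0.05, and from P2 to P6 for 9 of 14, with a median of 0.14, against 56.9% of all loci and a median of 0.06. No member was called in either test, against 0.0574% and 0.0344% of all loci, and 0 had an unadjusted p under 0.05, against 0.894% and 0.358%. Both tests rest on the group labelled SMA at P2, and that from P2 to P10 also on the group labelled SMA at P10. The fit of genotype over all ages with limma called no member, against 0.00455% of all loci, and 0 had an unadjusted p under 0.05, against 2.05%. The difference was negative for 13 of 14 mitotic genes (median -0.10) and 12 of 15 replication loci (median -0.07), against 39.3% of all loci and a median of 0.03. Mki67 differed by -0.21 ± 0.10 and Bub1 by -0.20 ± 0.12, both lower in SMA at 3 of 3 ages. This fit includes the groups labelled SMA at P2 and at P10. Without the P2 groups the difference was negative for 7 of 14 mitotic genes, and without the P10 groups for 13 of 14.

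**Figure D4:**
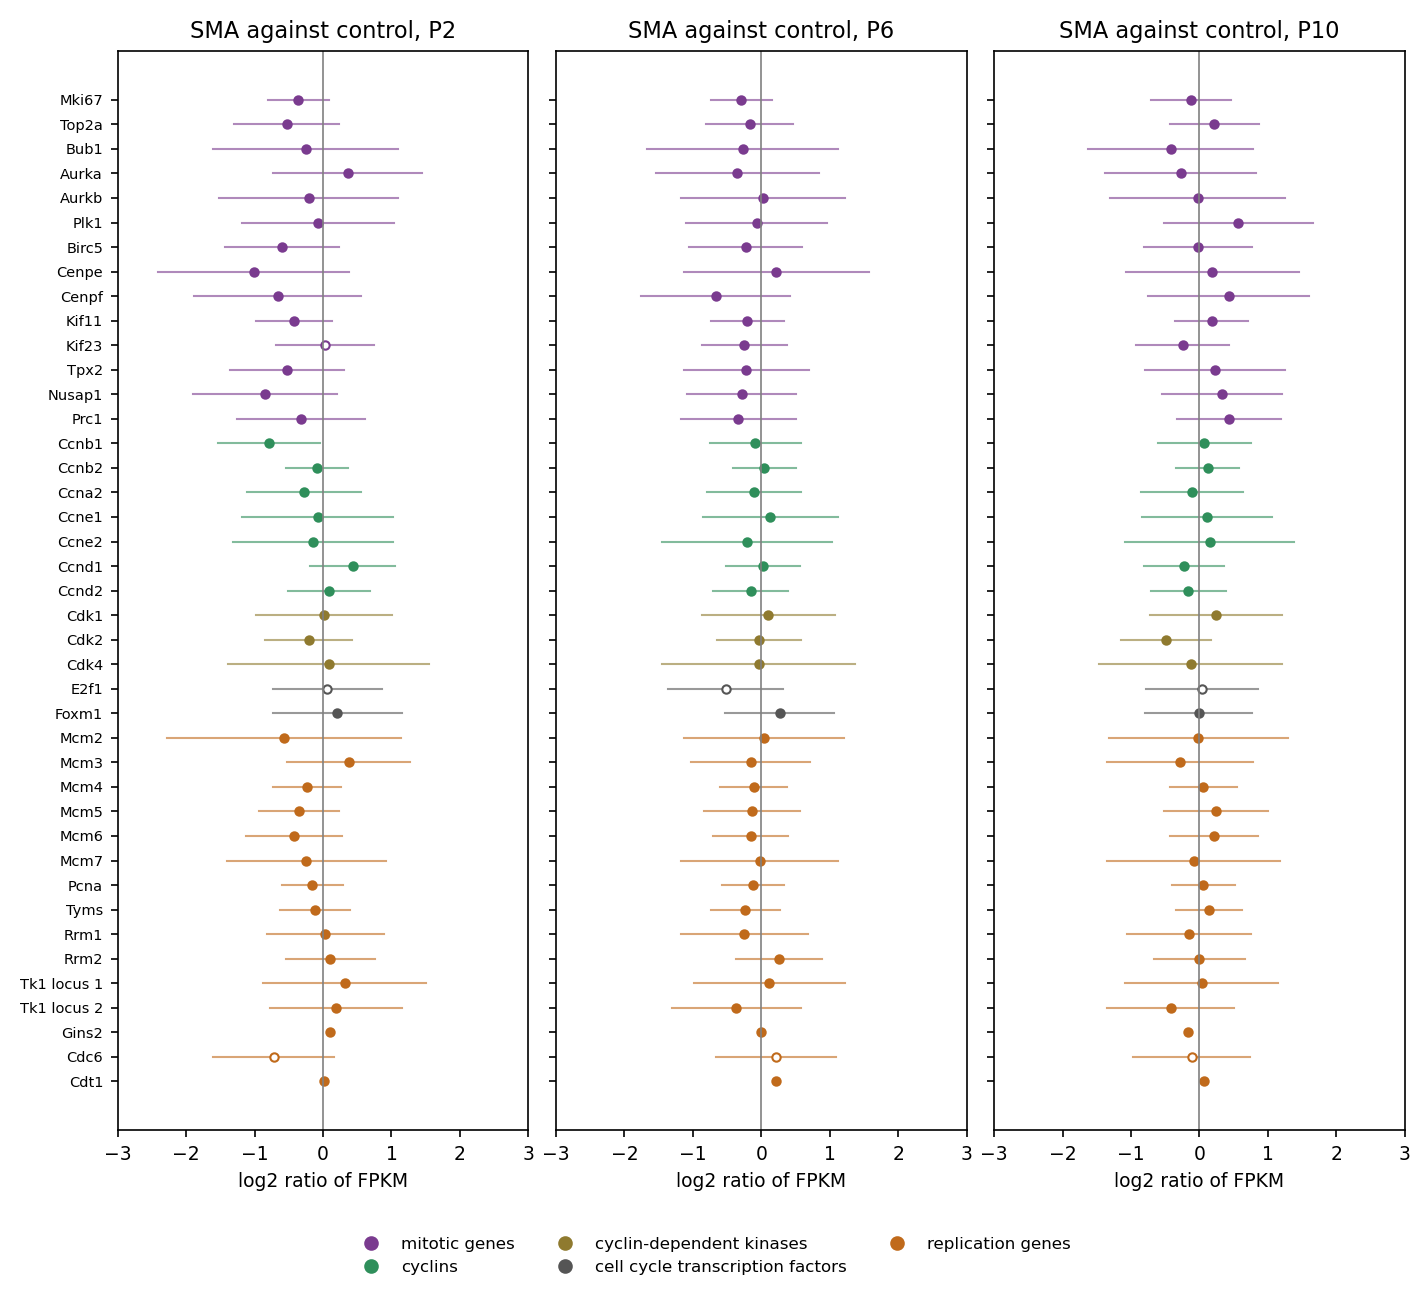
Log2 ratio of FPKM in SMA against control (horizontal axis) at P2, P6 and P10 for the 41 member loci, coloured by class; lines show ± 1 SE, left out for Gins2 and Cdt1, and open circles are loci not tested at that age. Of 14 mitotic loci, 12 lay left of 0 in the first panel, 12 in the second and 6 in the last.

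Markers of dividing and maturing cell types moved in the same comparisons. In bulk tissue, fewer cells of a type and less RNA per cell cannot be told apart. All 8 mature oligodendrocyte markers and all 9 markers of oligodendrocyte precursors had a higher value in SMA at P2, and 0 of either list did at P10. The precursor sum was 89.7, 153 and 265 in control and 152, 152 and 180 in SMA, and so was higher in SMA at P2, where most mitotic genes were lower. Its loci moved unevenly. At P2 the joined locus of Olig1 and Olig2 had 28.98 in control and 50.9 in SMA, and it reached 86.7 in control at P10. The joined locus of Pdgfra and Mir7025 had 18.1 in control and 20.4 in SMA at P2. In control it was highest at P6, at 22.6, while every other locus of the list was highest at P10. Whether the sum follows the dividing precursors was not tested. Neural progenitor markers summed to 95.6, 68.0 and 49.9 in control and 81.0, 58.7 and 61.4 in SMA, with 2 of 7, 0 of 7 and 3 of 7 higher in SMA at P2, P6 and P10. Microglial markers summed to 47.7, 56.0 and 62.3 in control and 59.1, 59.3 and 61.4 in SMA, and endothelial markers to 38.6, 53.2 and 59.1 and to 47.5, 43.0 and 42.6. Markers of bone marrow myeloid cells, which divide, were low, at 5.02, 8.48 and 6.02 in control and 9.16, 10.8 and 7.14 in SMA over 7 genes, with Elane listed at 0 in some group. Erythroid markers summed to 775, 997 and 743 in control and 526, 828 and 490 in SMA. Their sum was highest at P6 in control and lower in SMA at each age, as the values of most mitotic genes were at P2 and P6, although 2, 2 and 6 of 10 loci had a higher value in SMA at P2, P6 and P10. Fibroblast and meningeal markers summed to 182, 222 and 221 in control and 171, 254 and 125 in SMA, with 1, 5 and 0 of 6 higher in SMA. Astrocyte markers summed to 770, 924 and 1028 in control and 897, 943 and 944 in SMA. Schwann cell markers summed to 56.2, 147 and 258 and to 73.2, 197 and 128, pericyte markers to 35.2, 45.2 and 61.9 and to 42.9, 45.0 and 42.4, and skeletal muscle markers to between 1.95 and 15.3 over the 6 groups, highest at P2 in both genotypes. The part of these shifts in the values of the cell cycle genes was not tested.

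Further genes of the same pathways, from lists apart from the members, were read in the same way. Of 39 loci of other mitotic genes, 30 had a higher value at P6 than at P2 in control (median log2 ratio 0.21, against 49.7% of all loci) and 33 a lower value in SMA at P2 (median -0.23, against 51%). At P6 the value was lower in SMA for 23 of 39 of these loci (median -0.07, against 39.9%), and at both P2 and P6 for 14 (against 24.2%), where 10 of 14 mitotic members were lower at both. Of 32 measured loci of other replication genes, 22 had a lower value at P10 than at P2 in control (median -0.25, against 48.2%) and 23 a lower value in SMA at P2 (median -0.13, against 51%). At P6 they did not share the lower values of most replication members, with a higher value in SMA for 21 of 32 loci (median 0.09), near the 60.1% of all loci. The same count, 21 of 32, was higher in SMA across ages (median 0.03), near the 60.7% of all loci. Anln, the actin-binding anillin of the cleavage furrow, was the 1 gene of these lists that was called, against 0.631% of all loci in that comparison, and in control it rose from FPKM 0.943 to 2.37 and then 5.59 (P10 against P2, 2.57 ± 0.54, adjusted p = 0.000849 by the z test). In SMA it had 3.01, 1.97 and 3.84. Anillin is also made by myelinating oligodendrocytes, and like the mature oligodendrocyte sum its value was higher in SMA than in control at P2 and lower at P10. Rfc3, a subunit of the clamp loader, had the most negative ratio of these replication genes, with 11.0, 5.62 and 3.29 in control (-1.74 ± 0.76, not called) and 9.35, 8.11 and 6.85 in SMA. Chaf1b, a histone chaperone subunit at the fork, went from 2.76 to 1.77 and 1.05 in control (-1.40 ± 1.26) and Rfc5 from 15.7 to 12.2 and 11.5. Smc4, the condensin ATPase, ran from 5.77 to 7.82 and 9.41, and 1 of the 3 loci named Kif15, a spindle kinesin, from 1.68 to 1.12 and 0.941. Loci that joined Ncapd2 with Scarna10, Gins4 with Gpat4 and Rb1 with Itm2b were the highest of their lists and cannot be given to 1 gene.

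Inhibitors of the cyclin-dependent kinases hold the cycle back, in cells that leave it as in arrested ones. Of 7 CDK inhibitor genes, 5 had a lower value at P10 than at P2 in control (median log2 ratio -0.48, against 48.2% of all loci) and none was called, against 0.631%. Cdkn2a, among the lower ones at FPKM 0.0646 and 0.0424, and Cdkn2b, which was higher at P10, were too low to be tested. Over the 6 inhibitors above 0 in every group, which leaves out Cdkn2a, the median was -0.29. Cdkn2d, which encodes the Cdk4 inhibitor p19, had FPKM 28.0, 24.8 and 19.7 in control and 23.0, 28.6 and 23.6 in SMA. Cdkn1c, which encodes p57, had 14.3, 11.0 and 10.3 in control and 14.1, 11.3 and 9.91 in SMA. Cdkn1a, which encodes p21, had 7.43, 5.70 and 3.69 in control and 9.92, 11.0 and 9.41 in SMA, so that all 3 SMA values lay above all 3 control values. Its log2 ratios of SMA against control were 0.42 ± 0.52 at P2, 0.95 ± 0.51 at P6 and 1.35 ± 0.55 at P10. None of these was called, against 0.126%, 0.0458% and 0.0397% of all loci. Only the P10 ratio had an unadjusted p under 0.05 (0.0136 by the z test), against 0.213% of all loci. The Cdkn1a difference across ages was 0.79 (unadjusted p = 0.00375 by limma, not called), where 2.05% of all loci had an unadjusted p under 0.05. The doubt on the groups labelled SMA at P2 and P10 holds here too. Of the other cyclins and kinases, Ccnd3 had 7.07, 9.23 and 8.66 in control, Cdk6 3.78, 3.39 and 3.29, and Wee1, the kinase that restrains Cdk1, 1.82, 2.52 and 4.31. Of the Rb, E2F and DREAM factors, 12 of 18 measured loci had a higher value at P10 than at P2 in control (median 0.09, against 51.8% of all loci). Tfdp1, the partner of the E2F proteins, had 14.6 to 16.7 over the 6 groups, Tfdp2 had 5.85, 6.50 and 9.32 in control, and E2f8, a repressor of the family, had 0.588, 0.913 and 1.10.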

How the data were processed

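Total RNA of whole cords was made into ribosomal RNA-depleted, stranded libraries, per the labels' protocols. Per the submitters' processing notes, the tools were FastQC, Bowtie2 2.2.4, TopHat2 2.1.1, Picard, Cufflinks 2.2.1 and Cuffdiff on GRCm38; the annotation release and the normalization are not given in the sources used here. The authors deposited FPKM with lower and upper bounds, and expected counts with a variance, as 1 value per group. Members and lists were chosen with earlier results of these data known. All 40 members are named, as are, of the other pathway genes, the called ones, the 2 most abundant and the 2 with the greatest change from P2 to P10 in control per list.

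Ratios of FPKM were tested with a two-sided z test, SE from (upper bound - FPKM)/1.96, over all loci with FPKM 1 or more in a compared group, above 0 in each and status OK, with Benjamini-Hochberg adjustment. Counts of higher or lower values cover all member loci, tested or not; the background covers the loci tested. limma 3.58.1 in R 4.3.3 was fitted to log2(FPKM + 1) of the 6 groups with age and genotype (2 residual degrees of freedom). Both were tested on simulated data, made from loci with a higher FPKM and narrower bounds than most members and with noise of a set width. The simulations checked the computation and could not show whether the bounds describe the spread of these data. Identifiers and coordinates come from GENCODE on GRCm38; of several promoter windows, the one nearest the GENCODE start was read. Alternatives were the estimated counts, the FPKM minimum, the pseudocount, centring, the reading of the interval, the moderation, leaving out an age and, chosen after seeing the data, loci with a single symbol.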

Additional observations from a re-analysis of the deposited data

How the results depend on the processing

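No member was called under any of the 85 alternatives in which calls were counted. Among counts of the gene classes, 2 moved by more than 1.5 times. Mitotic genes with a higher value at P10 than at P6 in SMA numbered 6 in place of 10 with the deposited counts and their variance. Mitotic genes with a lower value in SMA across ages numbered 7 in place of 13 without P2. A class median was taken as moved only if it shifted by the median SE of its loci or more, and none did. For ratios within an age or a genotype that SE exceeded the median itself. It was 0.79 against 0.39 for mitotic genes at P6 against P2 in control. Such a median could change sign and still be taken as unmoved, so this rule says little about the medians. With the deposited counts and their variance, 5 of the single-gene ratios followed through the alternatives changed sign. They were Mcm3 for P10 against P2 in control (-0.000244), Mcm2 (0.0041) and Aurka (-0.0656) for SMA against control at P2, Cenpe at P6 (-0.48) and Cenpf at P10 (-0.0486). The cause was not tested. Not every ratio was followed, and that of Bub1 for P10 against P6 in control, which was not, also had the other sign in the counts. The other 261 values, which include the 85 counts of calls, and 266 of single genes kept their direction or stayed within these limits. The z values over all loci had a robust standard deviation of 0.237 to 0.47, below that of a standard normal, so the test made few calls at the width of the deposited bounds, and why the bounds are this wide was not tested. Treating 3 ages as replicates in limma assumes the genotype difference to be alike at each age. No paired analysis was possible because the deposited columns combine the libraries of a group and carry no replicate numbers, and for the same reason no library could be left out.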
